A study of Mus musculus with 4 samples.

Results

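The S phase and DNA replication genes described here are 40 genes that are used to mark cells copying their DNA. The list was chosen with earlier results of these data known and its genes were found by symbol, 40 of 32288 features in the count matrices. They were measured by droplet single-cell RNA-seq in hindlimb cells of mouse embryos at E14.5, in 4 libraries named S1 to S4. All embryos were Gli1CreER/+ with R26LSL-tdT/+ and TigreTRE-p21/+, had doxycycline from E12.5 and tamoxifen at E13.5, and differed in Col2a1-rtTA, which Pan-Cart-p21MOE embryos carried and controls lacked. With Col2a1-rtTA, doxycycline drives the cell-cycle inhibitor p21 in cartilage, and tamoxifen lets cells that express Gli1 switch on tdTomato in themselves and their descendants. Per the study, p21 is expressed in most but not all chondrocytes of this model (MOE, mosaic overexpression). Pan-Cart-p21MOE chondrocytes therefore hold cells with and without forced p21, which were not told apart here. Cells were sorted into tdT+ (S1, S3) and tdT- (S2, S4) fractions. In each library Pan-Cart-p21MOE cells of one sex were mixed with control cells of the other (male with female in S1 and S2, female with male in S3 and S4), so each cell was given its condition here from its sex-linked transcripts. UMIs were summed per library and condition into 8 sums, called pseudobulks below and named by library. The 4 pseudobulks of a condition came from 2 sets of embryos (pools below), each giving both sorted fractions, so the spread between them may be smaller than that between unrelated embryos. Per the study's methods the set behind Pan-Cart-p21MOE S3 and S4 was a single female embryo, while its results section describes samples pooled from several embryos.

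DNA replication starts when the MCM helicase, loaded onto origins in G1, is activated at the start of S phase and unwinds the DNA ahead of the polymerases, which need deoxynucleotides, a sliding clamp and new histones. Many of the genes for these steps are turned on together by E2F transcription factors once cyclin-dependent kinases have inactivated the retinoblastoma protein, and p21 (Cdkn1a) inhibits those kinases. In the growth plate, resting chondrocytes feed columns of proliferative chondrocytes, which stop dividing when they become prehypertrophic and hypertrophic.

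RefSeq promoters (GRCm38.p6, 250 bases before to 50 after the start) were found for 30 of the 40 genes. They were searched on both strands for TTTCCCGC, TTTCGCGC, TTTGCCGC and TTTGGCGC (E2F-type letters), for CCAAT and for TTTGAA, the letters of the cell cycle homology region (CHR). The E2F-type letters stood in 12 of the 30 genes, 40% against 2.63% of 26742 genes in the table. CCAAT stood in 21, 70% against 41.0%, and TTTGAA in 6, 20% against 20.1%. A pair of genes whose values lead the p21 comparison below, Rrm2 (chr12:24708004-24708303, plus strand) and E2f8 (chr7:48881547-48881846, minus strand), are shown beside a pair of helicase genes with the most E2F-type matches, Mcm5 (chr8:75109259-75109558, plus strand) and Mcm6 (chr1:128359656-128359955, minus strand). Capitals mark the searched letters in either orientation, and E2F-type matches in capitals overlap each other where a run is longer than 8 bases.

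Rrm2: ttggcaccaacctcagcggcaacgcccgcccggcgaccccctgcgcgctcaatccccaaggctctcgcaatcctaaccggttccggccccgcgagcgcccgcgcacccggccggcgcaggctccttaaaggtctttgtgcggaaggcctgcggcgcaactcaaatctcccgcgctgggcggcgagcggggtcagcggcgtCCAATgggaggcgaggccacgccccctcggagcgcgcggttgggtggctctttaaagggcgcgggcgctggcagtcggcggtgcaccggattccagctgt

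E2f8: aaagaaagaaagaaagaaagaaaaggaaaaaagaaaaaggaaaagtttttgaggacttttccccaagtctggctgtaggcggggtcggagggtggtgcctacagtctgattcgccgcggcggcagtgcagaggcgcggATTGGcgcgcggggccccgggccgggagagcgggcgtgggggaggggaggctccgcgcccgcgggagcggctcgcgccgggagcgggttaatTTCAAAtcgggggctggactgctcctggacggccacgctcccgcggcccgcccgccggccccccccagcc

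Mcm5: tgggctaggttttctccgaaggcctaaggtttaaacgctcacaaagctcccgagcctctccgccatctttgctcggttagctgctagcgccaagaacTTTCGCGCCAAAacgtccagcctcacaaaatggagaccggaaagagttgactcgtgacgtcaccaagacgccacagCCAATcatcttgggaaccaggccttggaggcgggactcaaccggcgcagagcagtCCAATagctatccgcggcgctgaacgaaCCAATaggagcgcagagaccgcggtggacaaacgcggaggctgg

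Mcm6: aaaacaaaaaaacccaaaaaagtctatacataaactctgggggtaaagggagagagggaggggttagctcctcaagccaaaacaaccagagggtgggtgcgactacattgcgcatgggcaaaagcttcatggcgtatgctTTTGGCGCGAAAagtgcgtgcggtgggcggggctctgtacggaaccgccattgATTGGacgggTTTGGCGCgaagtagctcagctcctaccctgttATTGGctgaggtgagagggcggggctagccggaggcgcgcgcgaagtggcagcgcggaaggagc

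The Mcm5 promoter holds 2 E2F-type matches and the Mcm6 promoter 3, while the Rrm2 window has 1 CCAAT alone and the E2f8 window 1 CCAAT and 1 TTTGAA. A match describes letters and no binding was measured.

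Of 4072, 2541, 6455 and 5887 barcodes in S1 to S4, 706, 772, 1483 and 3912 passed the quality filter, and 2768 cells could be given a condition and clustered. Any pair of libraries shared 3 to 12 barcodes. In S4, 2747 of the quality cells showed no usable sex-linked transcripts and were left out, and 3 clusters of low depth (17, 18 and 19) held Pan-Cart-p21MOE cells only. Cluster 20 (12 cells, all from S4) also held Pan-Cart-p21MOE cells only, and it was kept and counted as proliferative chondrocytes. Clusters were made without the 40 genes and without genes that follow them. The 6 chondrocyte clusters (924 cells, cartilage below) had a Col2a1 level of 5402 to 8499 CPM (UMIs scaled to the total of the cluster), and the 10 clusters outside cartilage (1499 cells) had 181 to 2295. The other 4 clusters (345 cells, 5.14 to 19.5% of a pseudobulk) were in neither compartment. Of these, cluster 17 (79 cells, 77 of them in S3) was raised in 7 of the 12 chondrocyte markers and was left out of cartilage for its low depth. Its summed level is given below, and its effect on the cartilage comparison was not tested.

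The labels were checked on transgene and p21 transcripts first, in CPM after TMM scaling (CPM below). Summed levels of the 40 genes, and levels by cell type or by UMIs per cell, are CPM of the UMI total of the same cells, without TMM scaling. WPRE, an RNA-stabilising sequence that the p21 and the tdTomato transgenes both carry, was at 1232, 982, 1824 and 1245 CPM in Pan-Cart-p21MOE chondrocytes of S1 to S4 and at 689, 120.2, 468 and 69.6 in control chondrocytes (log2 fold change 2.44 ± 0.38 (SE), adjusted p = 0.0175 in edgeR). WPRE counts therefore do not separate the transgenes, and in control the tdT+ values were the higher, while the tdT- values (S2 and S4) were 982 and 1245 CPM in Pan-Cart-p21MOE against 120.2 and 69.6. Cdkn1a in chondrocytes gave a log2 fold change of 0.24 ± 0.25 (adjusted p = 0.797). In proliferative chondrocytes it was at 74.3, 73.8, 82.9 and 66.6 CPM against 34.1, 45.0, 56.1 and 29.6, with no overlap (0.88 ± 0.21, adjusted p = 0.121). Per the study, reads of the p21 transgene fall mostly on WPRE, and any that fall on Cdkn1a were not counted apart here. The tdt transcript was higher in tdT+ than in tdT- cells, by 3.81 in chondrocytes and 3.67 outside cartilage (log2, adjusted p = 0.00092 and 0.000289), and Ccn2, a target of YAP, fell by 1.48 ± 0.12 in Pan-Cart-p21MOE chondrocytes (adjusted p = 0.00015).

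The 40 genes were detected in every named cell type. Among the 9 types or clusters with 3 or more pseudobulks per condition, tenocytes had the highest mean summed level, 2814 ± 526 CPM in Pan-Cart-p21MOE (SD, n = 4) and 3358 ± 528 in control (n = 3). Prehypertrophic and hypertrophic chondrocytes held the lowest of the chondrocytes, 1498 ± 279 (n = 3) and 1361 ± 23.9 (n = 2). Their cluster 13 also had the endothelial marker Cdh5 among its 10 top genes, so it may be mixed. At Leiden resolution 2, where an endothelial cluster stood apart, the means of these chondrocytes were 1517.5 (n = 3) and 1207 (n = 2). The tenocyte pseudobulks (2082 to 3678) did not overlap those of prehypertrophic and hypertrophic chondrocytes (1313 to 1819), whereas in the order of the Pan-Cart-p21MOE means neighbours with 2 or more pseudobulks overlapped throughout. Resting chondrocytes were at 2375 ± 312 and 2389.8 ± 206, and proliferative chondrocytes at 1984 ± 360.0 and 2823 ± 346 (n = 4 each). Osteoprogenitors gave 2054 ± 687 in Pan-Cart-p21MOE (n = 3) and 1096 in the 1 control pseudobulk with 5 cells or more. Connective tissue fibroblasts (2697 ± 512, n = 2), immune cells (3048) and muscle cells (1586) had a level in Pan-Cart-p21MOE only, as had cluster 17 (3121), so immune cells and cluster 17, with 1 pseudobulk each, lay above the tenocyte mean of that condition. At Leiden resolution 2 the Pan-Cart-p21MOE means of fibroblasts (3119) and joint interzone (2607) also exceeded that of tenocytes (2592). These are descriptions with no test.

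**Figure D1:**
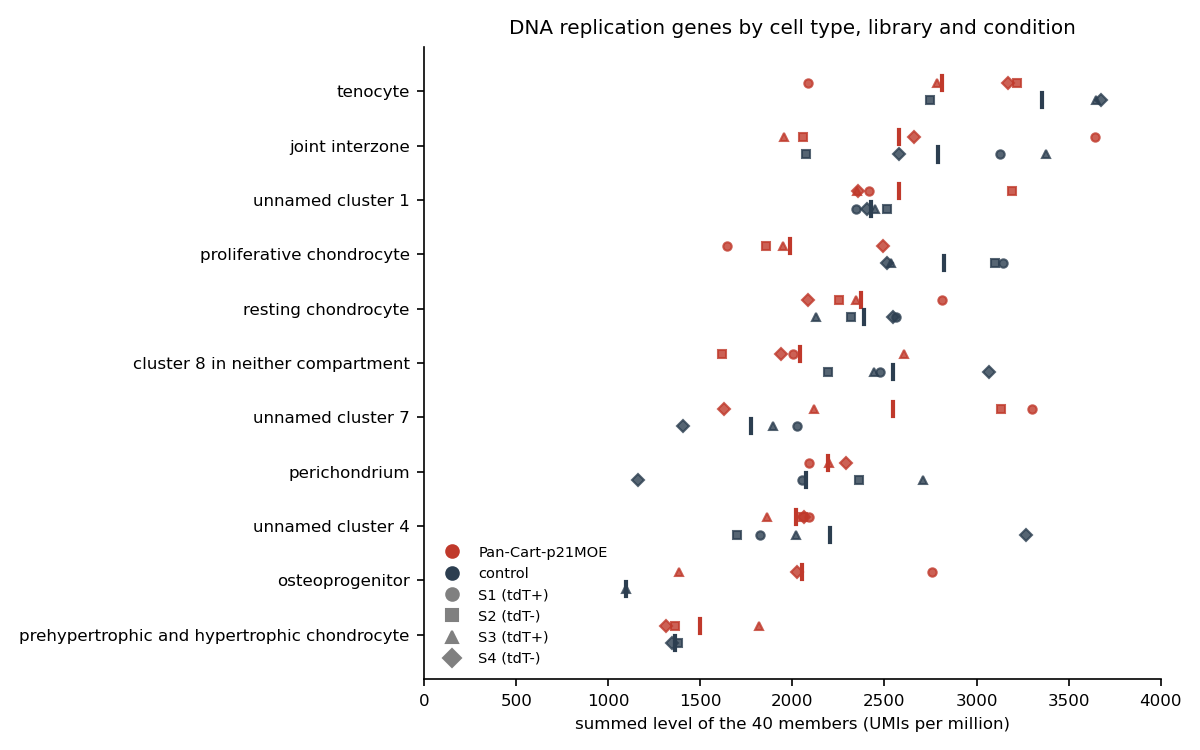
Summed level of the 40 genes (x axis, CPM) for each cell type or cluster with 4 or more pseudobulks in all (y axis), with 1 point per library and condition of at least 5 cells and a bar at the mean of each condition. Tenocytes have the highest mean of those drawn in each condition, with points between 2082 and 3678, and prehypertrophic and hypertrophic chondrocytes lie lowest among chondrocytes, between 1313 and 1819. In proliferative chondrocytes the control points (2514 to 3146) lie to the right of the Pan-Cart-p21MOE points (1644 to 2489).

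For each gene the means of both conditions were averaged per type, so this ranking also holds any difference between conditions, as in proliferative chondrocytes. Among the same 9, the highest such mean CPM was in tenocytes for 22 of the 40 genes and in joint interzone for 7. It was in the unnamed cluster 1 for 5 and in proliferative chondrocytes for 4. The 4 in proliferative chondrocytes were Pcna, the sliding clamp, Ung, which removes uracil from DNA, Cdc45, which activates the MCM helicase, and Tipin, which protects stalled forks. The highest of the 9 exceeded the lowest by 1.505-fold for Prim1, the primase subunit, up to 3.48-fold for Brip1, a helicase of crosslink repair. Brip1 was also the 1 gene highest in resting chondrocytes (72.4 CPM) and was lowest in the unnamed cluster 7 (20.8 CPM).

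Pan-Cart-p21MOE was compared with control in all chondrocytes to ask how forced p21 expression in cartilage moves the replication genes. The genes were mostly lower in Pan-Cart-p21MOE, but 1 of 40 passed the test, Gmnn, which encodes geminin, the inhibitor of the licensing factor Cdt1. Over all 11715 genes tested 0.598% were called. The fitted change was below 0 for 35 of the 40 (50.7% of all genes), with unadjusted p under 0.05 for 15 of them (5.69%) and with groups that did not overlap for 11 (3.79%). The median log2 fold change of the 40 was -0.28 and that of all genes -0.005. The summed level overlapped between conditions, at 2254, 2040.5, 2169.6 and 2218 CPM in Pan-Cart-p21MOE and 2928, 2638, 2176 and 2349 in control. The gap stood in the first collection (S1 and S2, male Pan-Cart-p21MOE and female control cells), and in the second (S3 and S4, sexes exchanged) the values lay close, so collection and the pairing of sexes cannot be told apart there. Fewer cells in S phase and less RNA per cell cannot be told apart in such sums.

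**Figure D2:**
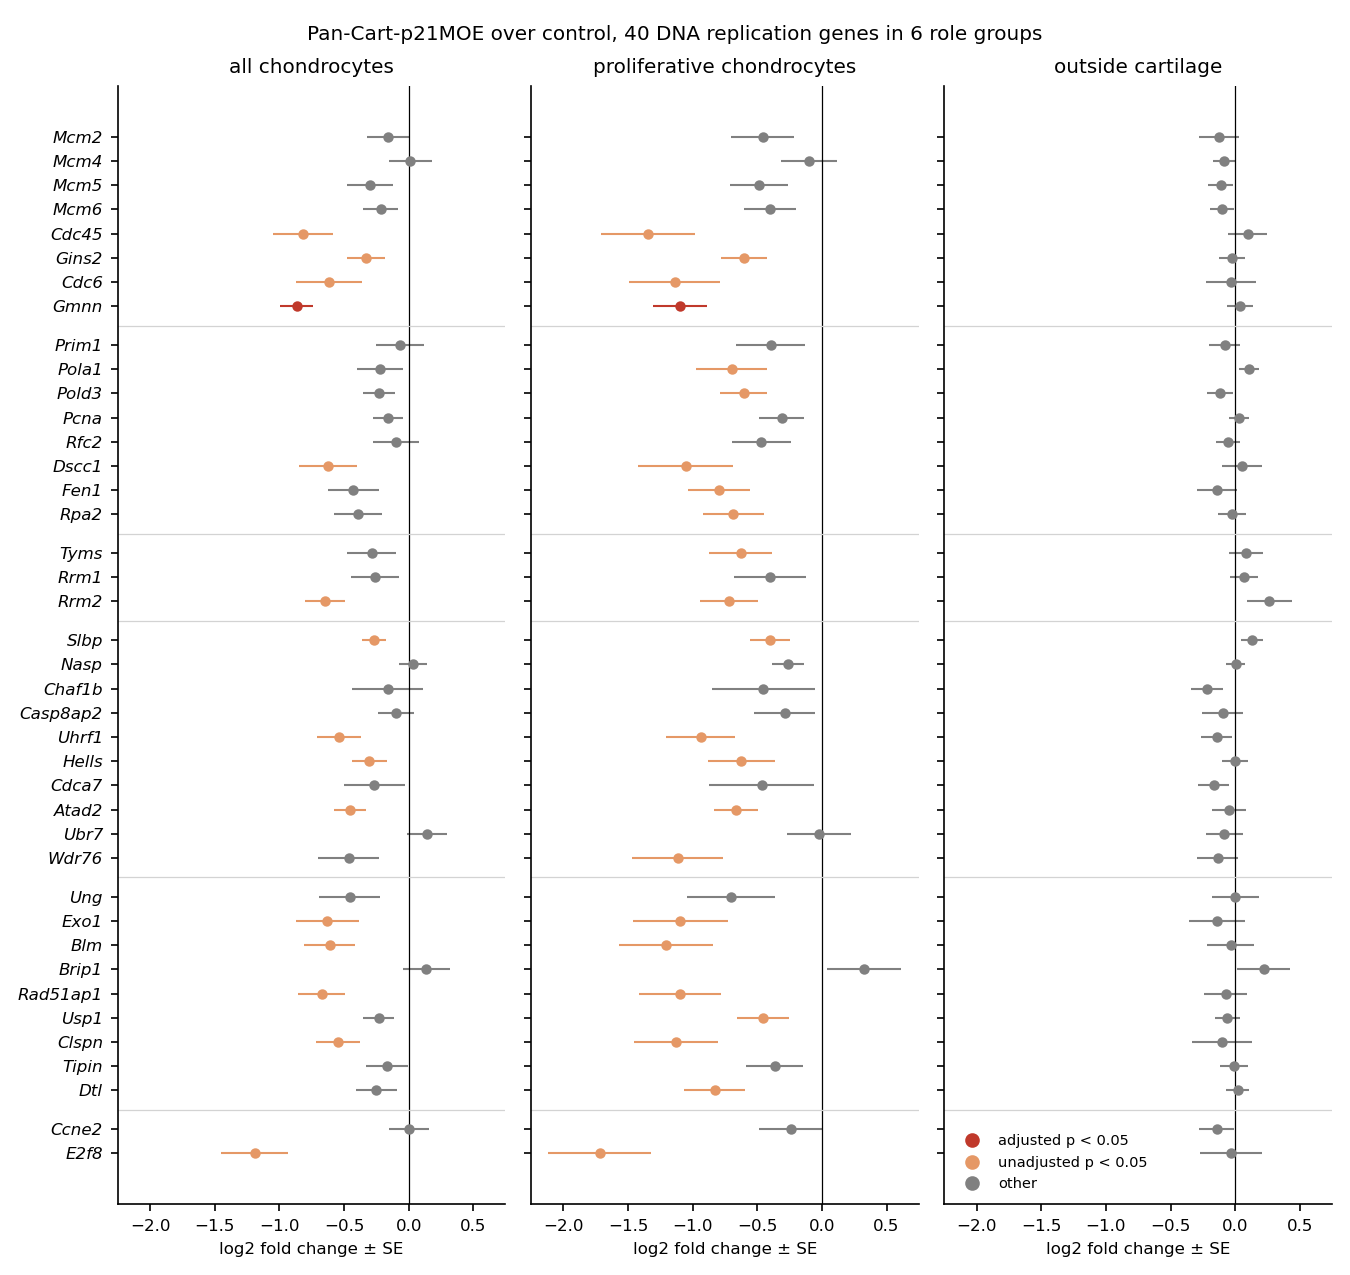
Fitted log2 fold change of Pan-Cart-p21MOE over control (x axis, points with SE bars) for each of the 40 genes (y axis, in 6 groups by role) in all chondrocytes, in proliferative chondrocytes and outside cartilage; colour gives the edgeR p. Gmnn passed the adjusted test in the first 2 panels (-0.87 and -1.10), and outside cartilage the points lie between -0.22 and 0.26.

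Of the 8 genes of the helicase and its loading, 7 had a fitted change below 0, 4 of them at unadjusted p under 0.05 (median -0.32). Gmnn was at 42.5, 36.4, 37.8 and 42.2 CPM in Pan-Cart-p21MOE chondrocytes of S1 to S4 and at 79.6, 76.8, 64.9 and 70.5 in control. Every control library lay above every Pan-Cart-p21MOE library, in both collections, and Gmnn fell by 0.87 ± 0.13 on the log2 scale (adjusted p = 0.0129). The call was lost without Pan-Cart-p21MOE S3 or without S4, where 0 of the 40 genes passed, with log2 changes of Gmnn from -0.92 to -0.81 over all libraries left out in turn. It was also lost with both fractions of a pool, which share embryos, summed into 1 sample, where 0 of the 40 and 16 of all genes passed. Cdc45 and Gins2, which join the MCM ring to form the working helicase, gave -0.82 ± 0.23 and -0.33 ± 0.15 (adjusted p = 0.176 and 0.462), and Cdc6, which loads MCM onto origins, -0.62 ± 0.25 (0.412). The MCM subunits themselves differed less, Mcm2 with -0.16 ± 0.17, Mcm4 with 0.01 ± 0.17, Mcm5 with -0.30 ± 0.18 and Mcm6 with -0.22 ± 0.13. Mcm6 was at 73.7, 72.8, 72.8 and 77.3 CPM against 88.1, 108.2, 77.3 and 73.4, so its groups overlapped. Mcm4 was at 63.5, 63.7, 66.4 and 64.9 CPM against 87.5, 67.7, 48.7 and 53.1 and overlapped as well.

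All 8 genes of primase, polymerases, clamp and Okazaki fragments had a fitted change below 0, with 1 at unadjusted p under 0.05 (median -0.23). That gene was Dscc1, part of an alternative clamp loader, at 7.54, 9.09, 8.53 and 8.51 CPM against 15.8, 14.0, 10.4 and 11.6, with no overlap (-0.62 ± 0.22, adjusted p = 0.327). Pcna was at 122.7, 103.5, 121.7 and 139.7 CPM against 152.4, 147.0, 123.4 and 128.4 (-0.16 ± 0.12, adjusted p = 0.705). Its S4 value was higher in Pan-Cart-p21MOE and the other 3 libraries were lower. Pola1, the catalytic subunit of the polymerase that starts each fragment, lies on the X chromosome, and each library set cells of one sex against the other. It was at 129, 61.4, 115 and 103 CPM against 140.0, 136, 95.4 and 107 (-0.22 ± 0.18), lowest in Pan-Cart-p21MOE S2. The remaining genes were Prim1 (-0.07 ± 0.18), the delta polymerase subunit Pold3 (-0.23 ± 0.12), the clamp loader subunit Rfc2 (-0.10 ± 0.18), the flap endonuclease Fen1 (-0.43 ± 0.20) and the single-strand binding subunit Rpa2 (-0.39 ± 0.19).

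The 3 genes of nucleotide supply had fitted changes below 0 (median -0.28). Rrm2, the subunit of ribonucleotide reductase whose level follows the cycle, was at 40.4, 54.6, 62.4 and 62.7 CPM in Pan-Cart-p21MOE and 95.4, 86.7, 71.4 and 97.9 in control. The groups did not overlap, and the change was -0.65 ± 0.15 (adjusted p = 0.0927). Rrm1, the large subunit of the same enzyme, gave -0.26 ± 0.19. Tyms, thymidylate synthase, was at 61.4, 70.5, 78.2 and 81.8 CPM against 105, 119, 53.9 and 84.5 (-0.28 ± 0.19). Control S1 and S2 lay above all Pan-Cart-p21MOE values of Tyms and control S3 below them, and Rrm1 overlapped too.

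In the group of chromatin, histone supply and DNA methylation upkeep, 8 of 10 genes had a fitted change below 0, 4 of them at unadjusted p under 0.05 (median -0.27). Atad2, a bromodomain ATPase, was at 82.9, 81.9, 70.2 and 66.8 CPM against 111.8, 94.2, 90.9 and 109.0 (-0.45 ± 0.12, adjusted p = 0.158). Slbp, which binds the stem-loop of histone mRNAs, was at 162.5, 138.7, 154.6 and 157.9 against 193.1, 188.7, 172.7 and 187.8 (-0.27 ± 0.09, adjusted p = 0.297). Uhrf1, which brings the maintenance methyltransferase to new DNA, was at 23.7, 27.3, 34.1 and 34.8 against 54.2, 48.3, 42.9 and 36.7 (-0.54 ± 0.17, adjusted p = 0.231). These 3 genes did not overlap between conditions, while Hells, a chromatin remodeller, did (-0.31 ± 0.14). Nasp, a histone chaperone, was at 305, 306, 278 and 257 CPM against 338, 268, 270.1 and 242, a fitted change of 0.03 ± 0.11 that turned to -0.03 without Pan-Cart-p21MOE S2. Ubr7, a ubiquitin ligase of chromatin, was at 43.6, 29.6, 31.8 and 34.2 CPM against 33.9, 33.5, 27.3 and 30.7, a change of 0.14 ± 0.15, which became -0.11 with cells brought to equal depth. Wdr76 (-0.46 ± 0.24), the Hells partner Cdca7 (-0.27 ± 0.24), the chromatin assembly subunit Chaf1b (-0.16 ± 0.27) and Casp8ap2 (-0.10 ± 0.14), which acts in histone gene expression, overlapped between conditions.

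Of the 9 genes of repair, fork protection and checkpoint, 8 had a fitted change below 0, and the 4 at unadjusted p under 0.05 did not overlap between conditions (median -0.46). They included the exonuclease Exo1 (-0.63 ± 0.25), the helicase Blm (-0.61 ± 0.20) and the checkpoint mediator Clspn (-0.55 ± 0.17), with adjusted p from 0.223 to 0.384. Rad51ap1 was the other of the 4. Brip1 was at 65.1, 58.0, 56.3 and 51.0 CPM against 51.9, 31.8, 63.6 and 59.7 (0.14 ± 0.18), and gave -0.03 without control S2, the lowest value. Ung (-0.46 ± 0.24), Dtl, the receptor of a ubiquitin ligase that acts at the clamp (-0.25 ± 0.16), Usp1, a deubiquitinase (-0.23 ± 0.12), and Tipin, at 78.0, 92.1, 93.1 and 102 CPM against 128, 119.8, 70.1 and 95.5 (-0.17 ± 0.16), overlapped.

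The 2 cycle regulators differed from each other. E2f8, a repressor of E2F targets that is itself made in S phase, was at 7.54, 3.41, 8.17 and 10.3 CPM in Pan-Cart-p21MOE and 20.9, 15.7, 14.9 and 23.9 in control, the largest fitted change of the 40 (-1.19 ± 0.26, adjusted p = 0.0716). The groups did not overlap. Ccne2, the cyclin E2 that starts S phase with Cdk2, was at 39.3, 31.8, 33.6 and 34.5 CPM against 42.9, 24.4, 38.3 and 34.3 (0.00 ± 0.15), with full overlap.

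**Figure D3:**
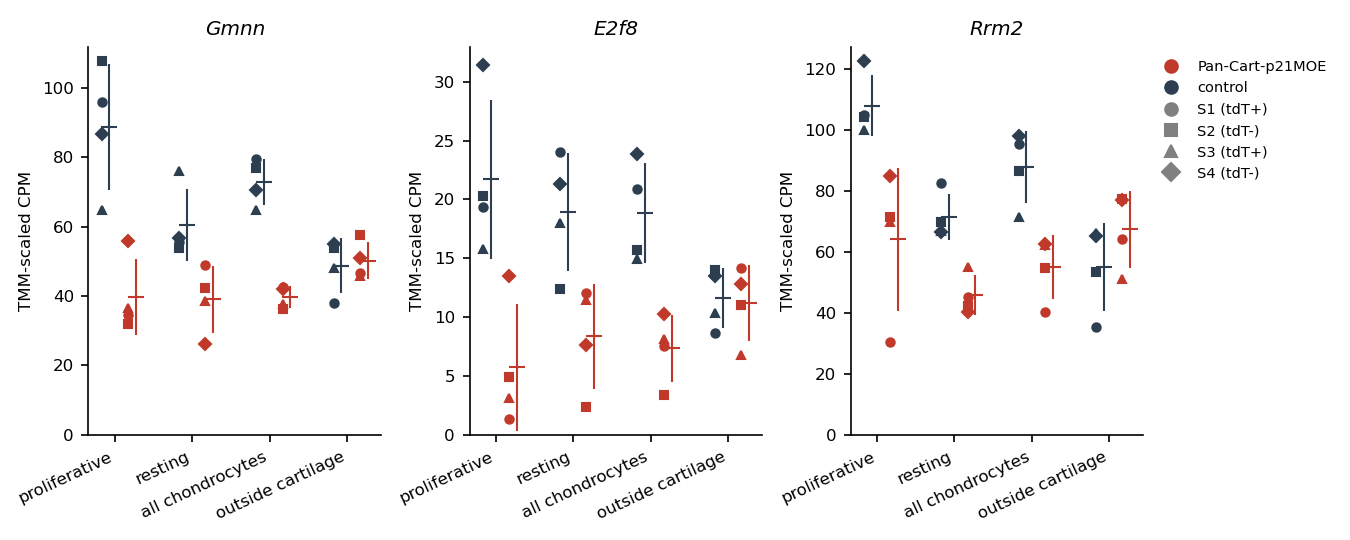
CPM after TMM scaling (y axis, 1 panel per gene) of Gmnn, E2f8 and Rrm2 in proliferative, resting and all chondrocytes and outside cartilage; points are libraries and bars are mean ± SD of 4. In chondrocytes every control point lies above every Pan-Cart-p21MOE point for all 3 genes, and outside cartilage the points of both conditions overlap.

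Proliferative chondrocytes are the dividing zone of the growth plate, and there the fitted changes were larger, a difference that was not tested. Gmnn was the 1 gene of 40 that passed (0.35% of 9703 genes), 39 of 40 had a fitted change below 0 (51.7% of all), 23 had an unadjusted p under 0.05 (5.37%) and 15 did not overlap (3.59%). The median was -0.61, against -0.01 over all genes. Without Scrublet removal it was -0.29, with 8 genes at unadjusted p under 0.05, and at Leiden resolution 2 it was -0.36, with 11. The summed level was 1644, 1856, 1947 and 2489 CPM in Pan-Cart-p21MOE and 3146, 3098, 2534 and 2514 in control, with no overlap, although S3 and S4 were nearer to each other across conditions than S1 and S2. The Pan-Cart-p21MOE sums of S1 and S2 rested on 17 and 12 cells.

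Gmnn in proliferative chondrocytes was at 34.5, 32.0, 36.6 and 55.8 CPM against 95.9, 107.8, 64.9 and 86.6, and fell by 1.10 ± 0.21 (adjusted p = 0.0496). Left out in turn, each library but Pan-Cart-p21MOE S4 ended this call, with changes from -1.32 to -0.97. E2f8 was at 1.33, 4.92, 3.12 and 13.52 CPM against 19.4, 20.3, 15.8 and 31.4 (-1.72 ± 0.40, adjusted p = 0.118), and Atad2 at 39.8, 54.1, 53.0 and 71.7 against 79.3, 106.9, 73.6 and 97.7 (-0.67 ± 0.17, adjusted p = 0.165). None of the 3 overlapped between conditions, and in each the S4 value was the highest of the Pan-Cart-p21MOE values. By role, the median was -0.55 for helicase genes, -0.65 for polymerase and clamp genes, -0.63 for nucleotide supply, -0.46 for chromatin genes and -0.83 for repair and checkpoint genes. Nasp did not overlap here (-0.26 ± 0.13, adjusted p = 0.468). Brip1 alone had a fitted change above 0 (0.33 ± 0.29). The 15 genes at unadjusted p under 0.05 in all chondrocytes were all among the 23 here, and both comparisons share these cells.

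Resting chondrocytes, a comparison added after the first results were seen, gave shares nearer to those of all genes. Of 39 genes tested, 22 had a fitted change below 0 (50.5% of all genes), 0 were called (0.0902%), 4 had an unadjusted p under 0.05 (6.23%) and 3 did not overlap (2.85%), with a median of -0.04. Dscc1 was below the filter on low counts. The 4 genes were Gmnn, Rrm2, E2f8 and Atad2. Gmnn was at 49.1, 42.2, 38.7 and 26.2 CPM against 55.6, 53.9, 76.0 and 56.7 (-0.73 ± 0.19, adjusted p = 0.179), Rrm2 at 45.1, 42.2, 55.1 and 40.4 against 82.7, 69.8, 67.0 and 66.5 (-0.64 ± 0.16, adjusted p = 0.159), and E2f8 at 12.0, 2.35, 11.4 and 7.62 against 24.1, 12.4, 18.03 and 21.3 (-1.07 ± 0.33, adjusted p = 0.246). These 3 did not overlap, and Atad2 did (-0.52 ± 0.22). The summed level overlapped, from 2084 to 2814 in Pan-Cart-p21MOE and from 2130 to 2564 in control. Without Scrublet removal 0 of 30 genes tested had an unadjusted p under 0.05 in either direction (395 of 6043 over the whole table). At Leiden resolution 2 it was 1 of 26 (326 of 5204). The difference between zones was not tested.

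Outside cartilage, where Col2a1-rtTA is not meant to drive p21, 0 of the 40 genes were called (0.00732% of 13654 genes), 0 had an unadjusted p under 0.05 (4.85%, either direction) and 0 had groups that did not overlap lower (1.19%). DESeq2 and limma-voom also called 0. The median was -0.04, 27 genes had a fitted change below 0 (50.5%) and 13 above, and changes ran from -0.22 to 0.26. The extremes were Chaf1b, at 20.7, 20.6, 16.8 and 20.5 CPM against 19.4, 25.9, 21.3 and 25.6 (-0.22 ± 0.12), and Rrm2, at 64.1, 77.4, 51.0 and 77.0 against 35.3, 53.4, 66.1 and 65.4 (0.26 ± 0.17). Both overlapped between conditions. Slbp was at 153, 164, 136 and 145 CPM against 125, 143, 148 and 128 (0.13 ± 0.09), Pola1 at 98.6, 112, 91.0 and 113 CPM against 82.4, 100.1, 93.4 and 109 (0.11 ± 0.08), Cdca7 at 34.9, 39.1, 31.6 and 32.4 CPM against 35.3, 43.6, 40.8 and 32.9 (-0.17 ± 0.12) and Uhrf1 at 40.6, 46.4, 45.1 and 58.1 CPM against 44.2, 61.2, 55.4 and 51.1 (-0.14 ± 0.12). These were the next by p, and all overlapped. Gmnn, at 46.6, 57.5, 45.7 and 50.9 CPM against 37.9, 53.9, 48.0 and 55.1, gave 0.04 ± 0.10, and E2f8, at 14.1, 11.1, 6.76 and 12.8 CPM against 8.64, 14.0, 10.4 and 13.51, gave -0.03 ± 0.24. WPRE outside cartilage gave 0.68 ± 0.24 (adjusted p = 0.958).

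The change inside cartilage was set against that outside in an interaction fit of 14322 genes. Of the 40, 0 passed (0.00698% of all, 1 gene), 34 had a more negative change inside cartilage (50.9%), and 9 of these had an unadjusted p under 0.05 (3.92%), with a median difference of -0.30. The median was -0.12 without control S1, -0.14 with cells thinned to equal UMIs and -0.18 without Scrublet removal, and without control S1 or Pan-Cart-p21MOE S4 the genes at unadjusted p under 0.05 in either direction were 4 and 5. Among the 9 were Gmnn (-0.89 ± 0.18, adjusted p = 0.207), Rrm2 (-0.95 ± 0.27, adjusted p = 0.397) and E2f8 (-1.11 ± 0.36). The others were Atad2, Blm, Cdc45, Rad51ap1, Slbp and Uhrf1. So the difference between compartments was not shown at the adjusted threshold for any of the 40 genes.

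Sums over cells weight deep cells most, and control and Pan-Cart-p21MOE chondrocytes were therefore also split by UMIs per cell, a division made after the results were seen. In chondrocytes with 40000 UMIs or more, the summed level was 1996, 2020.0, 2356 and 2405 CPM in Pan-Cart-p21MOE (15, 6, 45 and 56 cells) and 3489, 3455, 2522 and 2642 in control (15, 14, 11 and 32 cells), with no overlap. There 37 of 40 genes had a lower mean (46% of all genes) and 11 did not overlap (2.65%). Gmnn was at 38.0, 35.4, 40.3 and 47.1 CPM against 89.7, 91.1, 97.6 and 77.6. Proliferative chondrocytes of this depth had a lower mean in Pan-Cart-p21MOE for 40 of the 40 genes (45.7% of all genes), and 18 of these did not overlap (3.27%). These sums rested on few cells, 8, 4, 23 and 40 in Pan-Cart-p21MOE S1 to S4 and 12, 8, 6 and 19 in control. In chondrocytes of 15000 to 40000 UMIs the sums overlapped (2009 to 2537 against 1860 to 2431), with 1 gene of 40 not overlapping (1.47%) and a lower mean for 23 (42% of all genes). Below 15000 UMIs they overlapped too (1798 to 2392 against 1455 to 2183), with a lower mean for 18 (49.1%). Proliferative chondrocytes of 15000 to 40000 UMIs had a lower mean for 27 of the 40 (45.3%), with 0 genes apart lower (1.29%) and 1 apart higher (2.46%), and those below 15000 UMIs for 22 (51.9%). Cells of 40000 UMIs or more were 21.2% of Pan-Cart-p21MOE and 20.6% of control chondrocytes. Outside cartilage, cells of 40000 UMIs or more gave 2315 to 2989 against 2701 to 3683, which overlapped, although 38 of the 40 genes had a lower mean (52.7% of all genes) and 0 had groups apart (1.34%). The other ranges there went the other way, with a higher mean for 27 of the 40 at 15000 to 40000 UMIs and for 31 below 15000. The share over all genes is not given for these 2 counts. Both sums overlapped, 1956 to 2733 against 1874 to 2190 and 1860 to 2600 against 1749 to 2173.

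**Figure D4:**
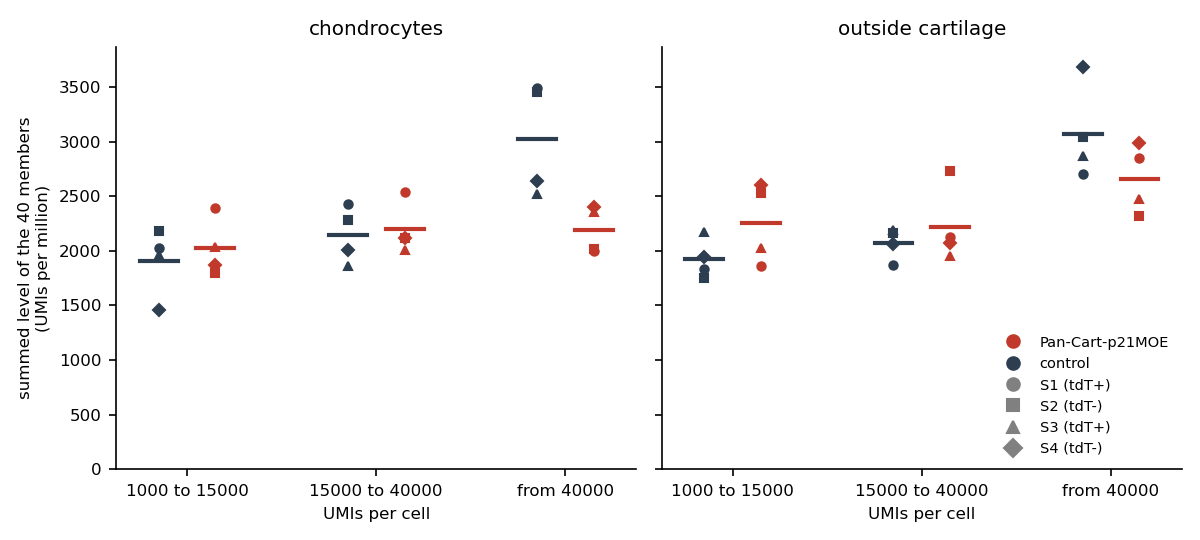
Summed level of the 40 genes (y axis, CPM) in cells grouped by UMIs per cell (x axis), in chondrocytes and outside cartilage; points are libraries and bars are means. Among chondrocytes with 40000 UMIs or more the control points (2522 to 3489) lie above the Pan-Cart-p21MOE points (1996 to 2405), and in the other ranges the points overlap.

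With each cell thinned to 5000 UMIs, so that all weigh the same, the chondrocyte median was -0.06 over the 30 genes left after the filter. Over all 6439 genes tested it was -0.013. Of the 30 genes, 17 were below 0, 13 above and 0 called, and 33 of the 6439 were called. Gmnn then gave -0.79 (adjusted p = 0.26). In proliferative chondrocytes the median was -0.19 over 21 genes (-0.009 over all 3296 tested), and Gmnn gave -0.86. There 0 of the 21 were called, and 5 of the 3296. Thinning also dropped cells under 5000 UMIs and left fewer genes, so these medians are over other cells and genes than those above. After thinning, 10 or more UMIs of the 40 genes were found in 50.3 ± 7.50% of Pan-Cart-p21MOE and 45.2 ± 5.28% of control chondrocytes (SD, n = 4). In proliferative chondrocytes the shares were 48.0 ± 5.04% and 52.3 ± 6.004%, and outside cartilage 43.5 ± 4.52% and 40.9 ± 3.18%. Before thinning, 100% of these cells held at least 1 UMI of the 40 genes, a lower bar than 10. At 10000 UMIs and 20 or more UMIs of the 40 genes, the shares of chondrocytes were 45.6 ± 6.37% and 46.6 ± 10.1%, so the order of the conditions turned. The 2 conditions differed by less than the sum of their SDs in each class at 5000 UMIs. Prehypertrophic and hypertrophic chondrocytes, which have largely left the cycle, still held the summed level given above, so the share counts cells with these UMIs and not cells in S phase.

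The tdT+ and tdT- fractions were compared with condition in the model, to ask whether cells of the Gli1 lineage differ. In chondrocytes 0 of the 40 genes were called (0.0171% of 11715), 0 had an unadjusted p under 0.05 (4.5%) and 0 did not overlap (1.2% of all genes lower and 1.25% higher), with 18 below 0 (49.8%), 22 above and a median of 0.02. Fitted changes ran from -0.24 for Tyms to 0.27 for Ccne2, and DESeq2 and limma-voom called 0. With the embryo pool as a block, 14 genes in place of 2 were called over the whole table, and 0 of the 40.

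Outside cartilage the 40 genes were mostly lower in tdT+ cells, and 0 were called (1.38% of 13654 genes). A fitted change below 0 was found for 38 (51.4% of all), an unadjusted p under 0.05 for 7 (7.5%) and groups that did not overlap for 4 (3.78%), with a median of -0.19 against -0.007 over all genes. Dscc1 was at 12.0, 12.46, 9.42 and 13.3 CPM in tdT+ cells (Pan-Cart-p21MOE S1 and S3, control S1 and S3) and at 17.7, 17.5, 17.6 and 17.2 in tdT- cells (S2 and S4), a change of -0.55 ± 0.15 (adjusted p = 0.113). The tdT- values lay close together and all above the tdT+ ones. Pola1 (-0.25 ± 0.08), Gmnn (-0.27 ± 0.10) and Pcna (-0.18 ± 0.08) also did not overlap (adjusted p from 0.172 to 0.328), and Ung (-0.52 ± 0.18), Mcm6 (-0.26 ± 0.10) and Mcm5 (-0.22 ± 0.10) overlapped. The pool block left 0 of the 40 called and a median of -0.18, with 382 in place of 189 calls over the whole table. Leaving out 1 library gave 30 calls without control S1, 42 without Pan-Cart-p21MOE S4, 56 without Pan-Cart-p21MOE S1 and 77 without control S3, and 0 of the 40 in each. The fractions differ in their cell types, with 66.7% of the tenocytes in S4 (tdT-), and the part of cell type in this difference was not tested.

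Among 63 other genes of replication, licensing and S phase entry, chosen like the mitosis list below with earlier results known, 62 were tested in chondrocytes. Of these, 56 had a fitted change below 0 (50.7% of all genes), 21 of them at unadjusted p under 0.05 (5.69%). The median was -0.28 and 0 were called (0.598%). Outside cartilage the split was 33 below (50.5% of all genes) and 29 above, with a median of -0.02. In proliferative chondrocytes 56 of 59 were below 0 (51.7% of all genes, median of the list -0.42). Among 43 mitosis genes, 41 of 42 tested in chondrocytes were below 0 (50.7% of all genes, median of the list -0.44), and 2 were called (0.598%). These were the kinetochore gene Ndc80 (-1.21 ± 0.19, adjusted p = 0.0175) and Hjurp, the chaperone of the centromeric histone (-0.78 ± 0.13, adjusted p = 0.0219). Outside cartilage 41 of 43 mitosis genes were above 0 (median 0.25), against 6765 of 13654 genes over the whole table. Of the 41, 6 had an unadjusted p under 0.05, against 423 of the 13654 genes in that direction, and 0 were called (0.00732%). Both replication lists had medians near 0 there. For the genes with a promoter in the table, the median change in chondrocytes was -0.26 for the 12 with E2F-type letters and -0.34 for the 18 without, and in proliferative chondrocytes -0.61 and -0.66.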

How the data were processed

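Per the labels and the study's methods, the authors sorted tdT+ and tdT- hindlimb cells, made 10x libraries and deposited raw UMI counts per gene and barcode from Cell Ranger 7.2.0 on mm10 (GRCm38) with transgene sequences added. Barcodes with 1000 UMIs, 500 genes and at most 10% mitochondrial counts were kept. Sex, and so condition, was called from Xist and Y-linked UMIs (at least 2 UMIs, 80% of one kind); cells with both were removed, and in S1 to S4 the top 5% of Scrublet scores too, since Scrublet itself marked 0 to 3 cells. Clustering (scanpy 1.11.5, Leiden resolution 1, 30 components) left out 637 genes that follow the cycle and the 40 genes. Names came from marker lists. Counts were summed per library and condition, filtered (filterByExpr), TMM-scaled and tested with edgeR 4.0.16 quasi-likelihood in R 4.3.3, with Benjamini-Hochberg adjustment over all genes tested and 0.05 as threshold, and with the sorted fraction (or condition) in the model. The interaction fit kept each library-and-condition pair as a block. DESeq2 1.42.0, limma-voom (limma 3.58.1) and other filters were alternatives. Fits were tested on simulated data. The 40 genes and all lists were chosen with earlier results of these data known.

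Genes given in full were the 8 with the most UMIs in chondrocytes, those called, and the 3 lowest p-values each way in each p21 comparison, 18 in all; the others stand by role. Pairing was checked by correlating deviations from group means. tdT+ and tdT- sums of a pool share embryos (r 0.119 to 0.398 in chondrocytes). Cells of both conditions in a library come from different embryos (r -0.077 to 0.090 in chondrocytes and 0.079 to 0.288 outside cartilage), so the library block was an alternative, and 0 sample columns were left unmapped. Depth was 875777 to 8050541 UMIs per chondrocyte pseudobulk, which limits the precision of genes with few counts.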

Additional observations from a re-analysis of the deposited data

Results flagged for a closer look

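Of 40 groups of 4 libraries looked at, 1 held a library far from the others. Chaf1b outside cartilage in Pan-Cart-p21MOE was at 20.7, 20.6, 16.8 and 20.5 CPM in S1 to S4, and the gap below S3 was 0.957 of the range, above the 95% critical value of Dixon for 4 samples. Chance alone gives about 1 such group in 20.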

How the results depend on the processing

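In chondrocytes 1 of the 40 genes was called. The number was 3 with DESeq2 (136 of 11715 genes over the whole table) and 4 with no filter on low counts (441 of 24152). It was 0 with the fractions of a pool summed (16 of 13616), 0 with cells thinned to equal UMIs (33 of 6439) and 0 to 1 with each library left out. The median was -0.061 with thinned cells. In proliferative chondrocytes 1 was called, against 2 with DESeq2 (101 of 9703 genes over the whole table) and 11 with no filter on low counts (383 of 22173). It was 0 with pseudobulk totals without TMM, no Scrublet removal, the stricter sex call, no fraction in the model, fractions of a pool summed or thinned cells. Those settings called 4 to 35 genes over the whole table. The number was 0 to 1 with each library left out. The median there was -0.29 with no Scrublet removal, -0.36 at Leiden resolution 2 and -0.19 with thinned cells. With no filter on low counts the interaction gave 2 calls among the 40 (270 of 25934 genes over the whole table) and tdT outside cartilage 1 (1176 of 24770). With the library as a replicate block, members called were 1 in chondrocytes (44 of 12194 genes over the whole table, median of the 40 -0.28). They were 0 in proliferative chondrocytes (22 of 10274, median -0.60) and 0 outside cartilage (1 of 14192, median -0.06). Both conditions of a library share its preparation and collection, not embryos. Without the block the interaction called 0 (median -0.28). Of 286 values that answer a comparison 255 stayed in the same range and 31 moved; the cause was not tested.

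Signs turned for Ubr7 in chondrocytes (-0.11) and for the interaction of Ubr7 (-0.19) and Ccne2 (-0.013) with thinned cells, for Nasp at resolution 2 (-0.0099) and for Pola1 outside cartilage with cluster 8 counted there (-0.016). With each library left out, Brip1 in chondrocytes ran from -0.028 (without control S2) to 0.32, Nasp from -0.032 (without Pan-Cart-p21MOE S2, and below 0 without control S3 or S4) to 0.12, and the interaction of Mcm4 from -0.0051 (without control S4) to 0.31. At resolution 2 control levels were 1207 in prehypertrophic and hypertrophic and 2155 CPM in resting chondrocytes. The share of control cells outside cartilage was 36.6% at 10000 UMIs and 20 or more UMIs of the 40 genes. Over all genes, calls under the alternatives ran from 16 to 441 in chondrocytes, from 4 to 383 in proliferative chondrocytes and from 0 to 270 in the interaction. With 1 library left out they ran from 9 (without Pan-Cart-p21MOE S3) to 59 in chondrocytes and from 0 (without Pan-Cart-p21MOE S2; 2 without control S4) to 31 in proliferative chondrocytes.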
